A study of Homo sapiens with 12 samples.

Results

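The genes described here are DDIT3, which encodes the transcription factor CHOP, ATF4, and 8 regulators that work with them in the integrated stress response: ATF3, TRIB3, CHAC1, PPP1R15A, SESN2, CEBPB, CEBPG and NUPR1. Every probe set annotated to exactly 1 of these 10 genes was taken, which gave 16 of the 54675 probe sets on the array. All 16 lay above a log2 value of 4 on at least 3 arrays, and the 10 genes were tested among 11154. The samples were 12 cultures of HK-2, an immortalized line of human kidney proximal tubule epithelial cells, each hybridized to 1 Affymetrix array. They formed 4 groups of 3: cells exposed to CsA for 12 h, cells exposed to CsA for 48 h, and vehicle controls at 12 h and at 48 h. CsA is read here as cyclosporin A, an immunosuppressant that binds cyclophilins, inhibits calcineurin and is toxic to the kidney. All groups shared a defined medium with epidermal growth factor, hydrocortisone, insulin, transferrin and selenium, and exposure began close to confluence. The study asked which expression signatures mark toxicity in these cells, and no dose or vehicle name is stated in the labels.

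The integrated stress response starts when a kinase phosphorylates the alpha subunit of the initiation factor eIF2, which lowers general protein synthesis while ATF4 mRNA is translated more. PERK senses unfolded protein in the endoplasmic reticulum (ER), GCN2 senses uncharged tRNA, PKR senses double-stranded RNA and HRI senses lack of heme. ATF4 then switches on amino acid transporters, amino acid synthesis and tRNA synthetases, together with CHOP, a factor linked to cell death when stress lasts. In tubule cells this response is known from ischaemia, proteinuria and exposure to nephrotoxic drugs. The arrays measured mRNA, so ATF4 translation and eIF2 phosphorylation were not measured, and RNA from a whole culture does not tell a change in every cell from a change in the share of responding cells.

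ATF4 binds DNA as a dimer with C/EBP proteins at a composite site known as CARE, with the core TGATGNAA. The promoters are shown because the 10 genes moved together over time, as described below. For 9 of the 10 genes RefSeq (GRCh38.p14) gave promoter windows of 250 bases before to 50 bases after a start site, and NUPR1 had no entry. Searching both strands, the CARE core was found in windows of 3 genes, ATF3, CHAC1 and CEBPG, and in windows of 4.46% of 27305 genes genome-wide. A full cAMP response element, TGACGTCA, was found for PPP1R15A and for 2.25% of all these genes. The AP-1 motif TGAGTCA was found for DDIT3 and for 6.05% of them. CCAAT and CCAC with 9 letters between them, the layout of an ER stress element with its last letter left free, was found for DDIT3 and for 0.381% of them. A match describes letters and not a bound site, and none of these motifs overlapped another. The 250 bases upstream of the start site are printed for DDIT3, CHAC1 and PPP1R15A, 5′ to 3′ on the gene's strand, with the matches in capitals.
DDIT3 (chr12:57520518-57520767, minus strand): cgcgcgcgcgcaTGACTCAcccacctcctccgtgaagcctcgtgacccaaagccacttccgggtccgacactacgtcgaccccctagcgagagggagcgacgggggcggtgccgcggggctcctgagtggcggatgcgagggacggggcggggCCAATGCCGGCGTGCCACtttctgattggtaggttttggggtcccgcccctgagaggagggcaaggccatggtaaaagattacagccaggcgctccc
CHAC1 (chr15:40953221-40953470, plus strand): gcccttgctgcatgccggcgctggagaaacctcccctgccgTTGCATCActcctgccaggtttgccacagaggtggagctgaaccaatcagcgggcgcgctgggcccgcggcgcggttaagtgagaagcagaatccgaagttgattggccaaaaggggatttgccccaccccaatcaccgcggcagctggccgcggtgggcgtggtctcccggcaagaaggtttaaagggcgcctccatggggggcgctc
PPP1R15A (chr19:48872171-48872420, plus strand): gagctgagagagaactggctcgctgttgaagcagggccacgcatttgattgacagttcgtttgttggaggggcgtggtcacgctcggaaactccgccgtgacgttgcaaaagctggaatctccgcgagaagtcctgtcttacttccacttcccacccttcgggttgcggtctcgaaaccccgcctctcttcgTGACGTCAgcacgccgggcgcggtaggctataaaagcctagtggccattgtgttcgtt

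The CHAC1 core lies in the reverse orientation, as TTGCATCA. For CEBPG and ATF3 only the 30 bases around the CARE core are printed, with the core in capitals. The CEBPG core starts 42 bases before the gene's second listed start site, and the ATF3 core starts 191 bases before the start site of its window.
CEBPG (chr19:33374060-33374089, plus strand): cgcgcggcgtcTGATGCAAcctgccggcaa
ATF3 (chr1:212565205-212565234, plus strand): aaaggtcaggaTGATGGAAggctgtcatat

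Values are log2 probe set summaries, and where a gene had several probe sets the brightest stood for it. Dim probe sets are squeezed together by GCRMA, so differences near a log2 value of 4 are uncertain, which concerns CHAC1 and NUPR1 at 12 h. The labels call the replicates biological. Between 42.2% and 42.8% of probe sets lay above 4 on each array. Replicate 3 of CsA at 48 h had dim hybridization controls, with a median of 7.38 where the remaining arrays had 9.89 to 11.42. Poly-A controls were dim on replicate 1 of the control and of CsA at 48 h, at 3.78 in the control and 4.13 with CsA, against 8.26 to 9.99 elsewhere. The median within-group SD was 0.10 in the control and 0.11 with CsA at 12 h, and 0.15 and 0.20 at 48 h. The ACTB 3′ minus 5′ difference, a sign of RNA quality, was 1.33 on replicate 1 of the control at 48 h and 1.22 on replicate 3 of CsA at 48 h, and 0.73 to 0.98 elsewhere, and its part in the results was not tested. Of the epithelial markers 5 of 6 lay above 8 (KRT8, KRT18, KRT19, EPCAM and CLDN1), while CDH1, which encodes E-cadherin, lay under 4 on every array. Of the 14 proximal tubule markers on the array, CDH6, PDZK1 and SLC4A4 lay above 8 and 10 lay under 4 on every array, among them AQP1, LRP2 and SLC34A1. The fibroblast markers COL1A1 and LUM lay above 8, and COL1A2, COL3A1 and PDGFRA under 4 on every array. Endothelial markers (5 of 6) and leukocyte markers (5 of 5) also lay under 4 on every array. The summed level of a marker list, given as its mean log2 value, ranged from 3.01 to 3.14 for the endothelial list and from 2.32 to 2.40 for the leukocyte list over the 4 groups.

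The largest differences of these genes were between 12 h and 48 h, and they were present in control cultures without CsA. All 10 genes rose in the controls, from 1.25 (SESN2) to 4.84 (DDIT3) on the log2 scale, and 24.6% of all genes tested rose there. Every 48 h control array lay above every 12 h control array for all 10, which held for 31.8% of all genes. The median change over the 10 was 2.05, against 0.03 over all genes. All 10 also rose between 12 h and 48 h under CsA, where 27.8% of all genes rose and 33.5% had arrays that did not overlap. Their median change there was 2.12, against 0.03 over all genes. The 10 genes were chosen with earlier results of these data known, so these counts are descriptions. The labels name no array batch, so time in culture and anything else handled separately at 12 h and 48 h cannot be told apart.

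**Figure D1:**
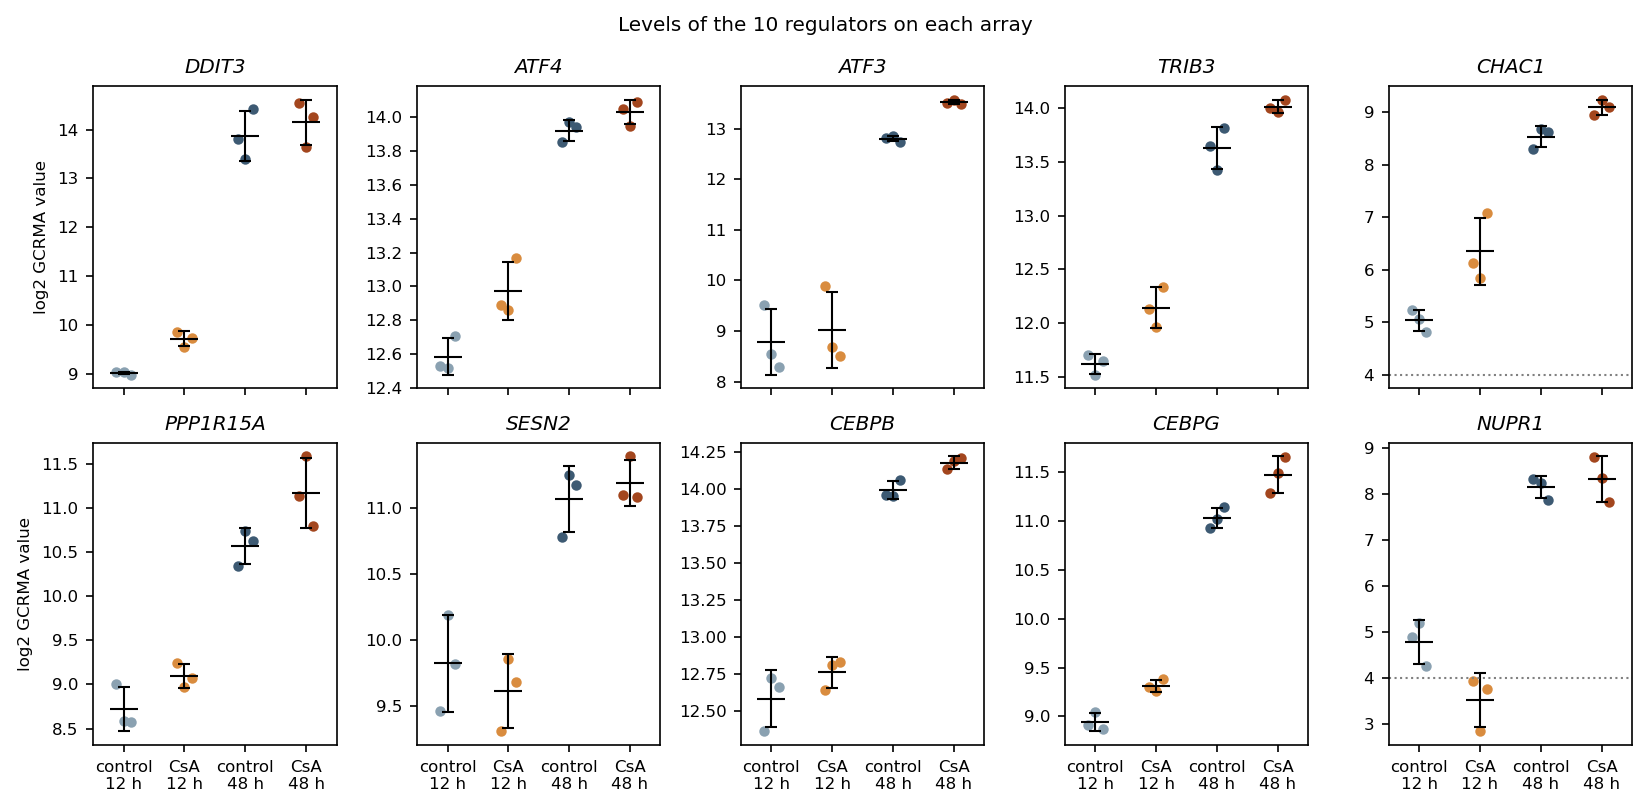
Log2 GCRMA value (vertical axis, a separate scale per gene) of each of the 10 genes on each array, with 1 point per array and 3 arrays per group. Horizontal lines give the group mean, bars give 1 SD either side, and the dotted line marks a log2 value of 4. The 48 h arrays lie above the 12 h arrays for every gene. Mean differences between CsA and control of the same time are smaller than the changes over time, and largest for CHAC1 (1.31) and NUPR1 (-1.27) at 12 h.

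DDIT3 (probe set 209383_at) had values of 9.04, 9.04 and 8.99 on the 12 h control arrays, and of 13.80, 13.40 and 14.41 on the 48 h control arrays. The groups lay more than 4 log2 units apart, and the 48 h arrays spread more (SD 0.50) than the 12 h arrays (SD 0.03). The change was 4.84 (SE 0.26), a 28.7-fold rise and the fourth largest among all genes, with an adjusted p of 9.66e-07 in limma. Under CsA, DDIT3 rose 21.5-fold, from 9.87, 9.56 and 9.74 to 14.55, 13.65 and 14.25.

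ATF4 (200779_at) is the factor upstream of CHOP. Its control arrays read 12.53, 12.52 and 12.71 at 12 h and 13.85, 13.97 and 13.94 at 48 h, with a clear gap between the groups. This was a 2.51-fold rise (log2 change 1.33, SE 0.10, limma adjusted p = 5.29e-06). Under CsA the rise was 2.09-fold, from 12.89, 12.86 and 13.17 to 14.05, 13.95 and 14.09.

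ATF3 (202672_s_at) is a stress-induced factor of the same basic leucine zipper (bZIP) class. In controls it read 9.52, 8.55 and 8.29 at 12 h and 12.82, 12.85 and 12.74 at 48 h. Replicate 1 stood above the others at 12 h, with and without CsA, while the 48 h arrays were tight (SD 0.05). The rise was 16.2-fold in controls (log2 change 4.02, SE 0.36, limma adjusted p = 1.53e-05) and 22.5-fold under CsA.

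CEBPB (212501_at) and CEBPG (225527_at) encode C/EBP-type partners of ATF4 and CHOP. CEBPG read 8.91, 9.05 and 8.87 at 12 h and 10.93, 11.02 and 11.14 at 48 h in controls, with little spread at either time. It rose 4.25-fold (log2 change 2.09, SE 0.10), with the smallest adjusted p of the 10 genes (7.31e-07 in limma). CEBPB read 12.36 to 12.72 at 12 h and 13.95 to 14.06 at 48 h, a 2.66-fold rise both in controls and under CsA.

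Among the genes that act downstream, TRIB3 (218145_at), a pseudokinase that holds back ATF4 and AKT signalling, read 11.70, 11.52 and 11.65 at 12 h and 13.65, 13.43 and 13.82 at 48 h in controls. The groups did not overlap, and the rise was 4.03-fold (log2 change 2.01, SE 0.12, limma adjusted p = 1.72e-06). CHAC1 (219270_at), an enzyme that breaks down glutathione, read 5.23, 5.05 and 4.82 at 12 h, not far above the floor, and 8.30, 8.67 and 8.62 at 48 h. Its rise was 11.3-fold in controls (log2 change 3.50, SE 0.26, limma adjusted p = 5.42e-06) and 6.70-fold under CsA.

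PPP1R15A (37028_at) encodes GADD34, which directs a phosphatase to eIF2 and so ends the response. It read 9.01, 8.58 and 8.57 at 12 h and 10.34, 10.74 and 10.63 at 48 h in controls, a 3.60-fold rise (log2 change 1.85, SE 0.20). SESN2 (223195_s_at), an inhibitor of the growth kinase mTORC1, rose 2.37-fold, the smallest rise of the 10 in controls (log2 change 1.25, SE 0.20, limma adjusted p = 0.000665).

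NUPR1 (209230_s_at), a small stress-induced nuclear protein, read 4.90, 5.20 and 4.26 in the 12 h controls and 8.32, 8.25 and 7.88 in the 48 h controls. It rose 10.3-fold (log2 change 3.36, SE 0.34, limma adjusted p = 3.04e-05). With CsA at 12 h it read 3.94, 2.85 and 3.77, all near background, so its fold under CsA, 27.9 by the fit, starts from a level with no reliable order.

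**Figure D2:**
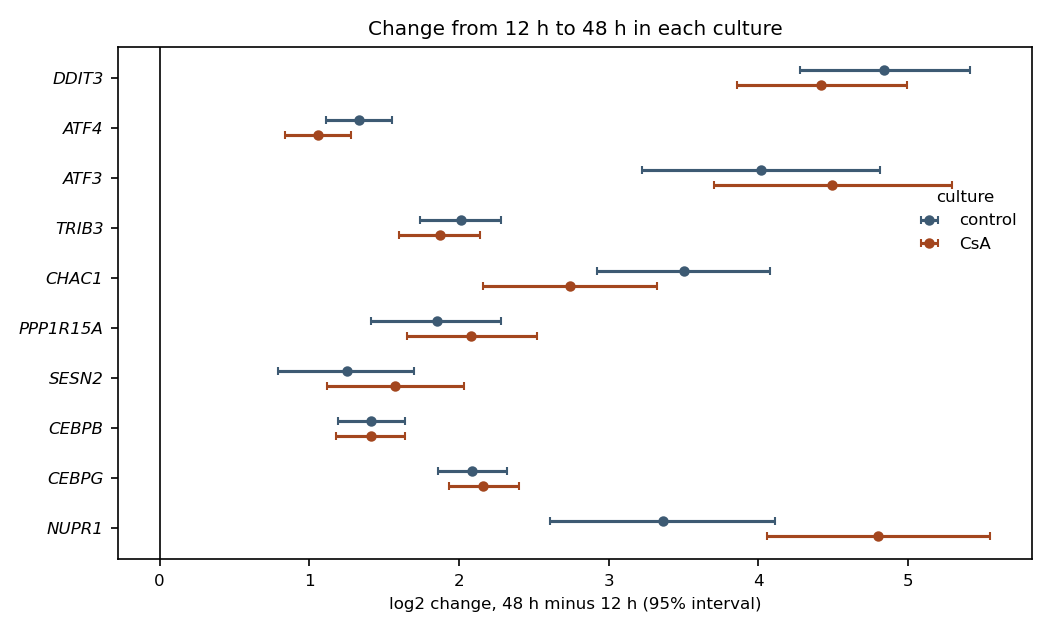
Log2 change from 12 h to 48 h (horizontal axis) of each gene in control and CsA cultures, with 95% intervals from limma and 3 arrays per group. All intervals lie above 0. In controls SESN2 and ATF4 are lowest and DDIT3 and ATF3 highest, and the CsA value of NUPR1 starts from arrays near background.

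At 12 h, CsA cultures had higher values than controls for 8 of the 10 genes, as for 47.1% of all genes, and lower values for SESN2 and NUPR1. No gene of the 10 passed the threshold after adjustment over all genes. Across all genes tested 0.00897% passed, in either direction. At an unadjusted limma p under 0.05, 5 of the 10 were higher and 1 was lower, against 1.70% and 1.15% of all genes. Every CsA array lay above every control array for those 5, DDIT3, ATF4, TRIB3, CHAC1 and CEBPG, which held for 6.53% of all genes. Every CsA array lay below every control array for NUPR1, which held for 6.51% of all genes. The median difference was 0.37 over the 10 genes and -0.01 over all genes. The control arrays used here are those used above for the change over time, so the comparisons are not independent.

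CHAC1 showed the second largest positive difference of all genes at 12 h. Its CsA arrays read 6.13, 5.84 and 7.07 against 5.23, 5.05 and 4.82 in the controls, with replicate 3 of CsA well above the other arrays. The difference was 1.31 (SE 0.26, 95% interval 0.73 to 1.89), 2.48-fold, with an adjusted p of 0.731 in limma. Between arrays of the same replicate number it was 0.90, 0.79 and 2.25.

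DDIT3 read 9.87, 9.56 and 9.74 with CsA against 9.04, 9.04 and 8.99 in the controls, so the groups were separate with a gap wider than either group's range. Its difference was 0.70 (SE 0.26, 95% interval 0.13 to 1.26), 1.62-fold, and it ranked 30th among all genes, with a limma p of 0.0204 before and 1 after adjustment. The wide 48 h arrays of this gene enter that SE and interval. In the 12 h arrays alone the SE was 0.09 and the limma adjusted p was 0.405. ATF4 read 12.89, 12.86 and 13.17 with CsA against 12.53, 12.52 and 12.71. The ATF4 difference was 0.38 (SE 0.10, 95% interval 0.16 to 0.60), with a limma p of 0.00284 before and 1 after adjustment.

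TRIB3 was higher by 0.52 (SE 0.12) and CEBPG by 0.37 (SE 0.10) at 12 h, with limma p of 0.00133 and 0.00535 before adjustment and 0.778 and 1 after. For TRIB3 the CsA arrays read 12.13, 11.96 and 12.34 against 11.70, 11.52 and 11.65. The separation was narrow for both genes, since the lowest CsA array lay 0.26 above the highest control array for TRIB3 and 0.21 above it for CEBPG. The second probe set of each of these genes overlapped between CsA and control at 12 h.

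The remaining genes overlapped at 12 h. PPP1R15A differed by 0.37 (SE 0.20), CEBPB by 0.18 (SE 0.10), ATF3 by 0.24 (SE 0.36) and SESN2 by -0.21 (SE 0.20). Pairs of the same number were higher with CsA in 3 of 3 for the first 3 genes and lower in 3 of 3 for SESN2. For ATF3 the differences between same-numbered arrays were 0.38, 0.13 and 0.21. The ATF3 group difference turned to -0.19 without replicate 1 of CsA and to -0.01 without replicate 3 of the control. Leaving out 1 array leaves its pair incomplete, and replicate 1 was high in both groups.

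NUPR1 had the lowest difference of all 11154 genes at 12 h, -1.27 (SE 0.34, 95% interval -2.01 to -0.52). Its limma p was 0.00336 before and 1 after adjustment. The 3 CsA values lay under 4 and the 3 control values between 4.26 and 5.20, in the range where GCRMA compresses differences.

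At 48 h the CsA means of all 10 genes lay above those of the controls, by 0.11 (ATF4) to 0.71 (ATF3), as did those of 49.2% of all genes. Of the 10, 1 gene, CEBPG, passed the threshold. In this contrast 6.20% of all genes passed as higher and 9.89% as lower. Because 48 h arrays varied more than 12 h arrays, the 48 h arrays were also fitted alone, where 0.278% of all genes passed as higher and 0.825% as lower. On simulated data with the spread of each group, many of the 48 h calls of the fit of all arrays were false, and far fewer of those of the 48 h arrays alone. Those data held far fewer changed genes than were called here. They also took the SD of each gene over the 3 arrays of a group as exact, though so few arrays estimate it poorly. The share of false calls in the present arrays was therefore not tested. In those data the 48 h arrays alone also found fewer of the changed genes. Calls at 48 h that only the fit of all arrays makes, here and below, are uncertain. A gene that does not pass in the 48 h arrays alone may still differ. In the 48 h arrays alone ATF3 passed and CEBPG did not. Every CsA array lay above every control array for 6 genes, ATF3, TRIB3, CHAC1, PPP1R15A, CEBPB and CEBPG, which held for 13.9% of all genes. The median difference was 0.33 over the 10 and 0 over all genes. Marker lists also moved in this contrast: 3 of 4 tested proximal tubule markers and 2 of 4 tested fibroblast markers fell with CsA, and CLDN1 of the epithelial list rose, by the fit of all arrays. In the 48 h arrays alone 1 tubule marker, CDH6, and none of the fibroblast and epithelial markers passed. The mean log2 value of the tubule list ranged from 4.89 to 5.07 on the control arrays and from 4.68 to 4.74 on the CsA arrays. That of the fibroblast list ranged from 5.11 to 5.42 and from 4.53 to 5.22, and that of the epithelial list from 11.56 to 11.65 and from 11.62 to 11.96. Their part in the results was not tested.

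CEBPG read 11.28, 11.49 and 11.65 with CsA against 10.93, 11.02 and 11.14 in the controls. The groups were separate by 0.14, and the difference was 0.44 (SE 0.10), 1.36-fold. The limma adjusted p was 0.0198 with all arrays and 0.131 with the 48 h arrays alone. Leaving out replicate 1 or replicate 2 of the 48 h controls gave 0.0645 and 0.0644.

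ATF3 read 13.50, 13.57 and 13.49 with CsA against 12.82, 12.85 and 12.74. Both groups were tight (SD 0.05 each), and their gap of 0.64 was the widest of the 10 genes at 48 h. The difference was 0.71 (SE 0.36), 1.64-fold. The limma adjusted p was 0.20 with all arrays, where the wide 12 h arrays of this gene enter the SE, and 0.0454 with the 48 h arrays alone.

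PPP1R15A read 11.14, 11.59 and 10.80 with CsA against 10.34, 10.74 and 10.63, and its lowest CsA array, the one with dim hybridization controls, lay only 0.06 above the highest control array. Its difference was 0.61 (SE 0.20, limma adjusted p = 0.0609), and without that array it was 0.79 (adjusted p = 0.0178). TRIB3 read 14.00, 13.97 and 14.08 with CsA against 13.65, 13.43 and 13.82, a difference of 0.38 (SE 0.12, limma adjusted p = 0.0541). CHAC1 read 8.94, 9.23 and 9.10 with CsA against 8.30, 8.67 and 8.62, a difference of 0.56 (SE 0.26, limma adjusted p = 0.172). The gap between the groups was 0.15 for TRIB3 and 0.27 for CHAC1, beside a control SD of 0.20 for both.

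DDIT3, which changed most over time in controls, read 14.55, 13.65 and 14.25 with CsA against 13.80, 13.40 and 14.41 at 48 h, and the groups overlapped. Its difference was 0.28 (SE 0.26, 95% interval -0.29 to 0.84, limma adjusted p = 0.491), so an increase of up to 0.84 is within the interval. The difference was 0.05 without replicate 2 and 0.55 without replicate 3 of the control, and 0.08 without replicate 1 and 0.53 without replicate 2 of CsA. Without both replicate 1 arrays it was 0.04. ATF4 differed by 0.11 (95% interval -0.10 to 0.33), SESN2 by 0.12 (-0.33 to 0.58), CEBPB by 0.18 (-0.05 to 0.41) and NUPR1 by 0.17 (-0.57 to 0.92). Leaving out 1 array turned the sign for NUPR1 (-0.07 without CsA replicate 1) and SESN2 (-0.02 without control replicate 1).

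**Figure D3:**
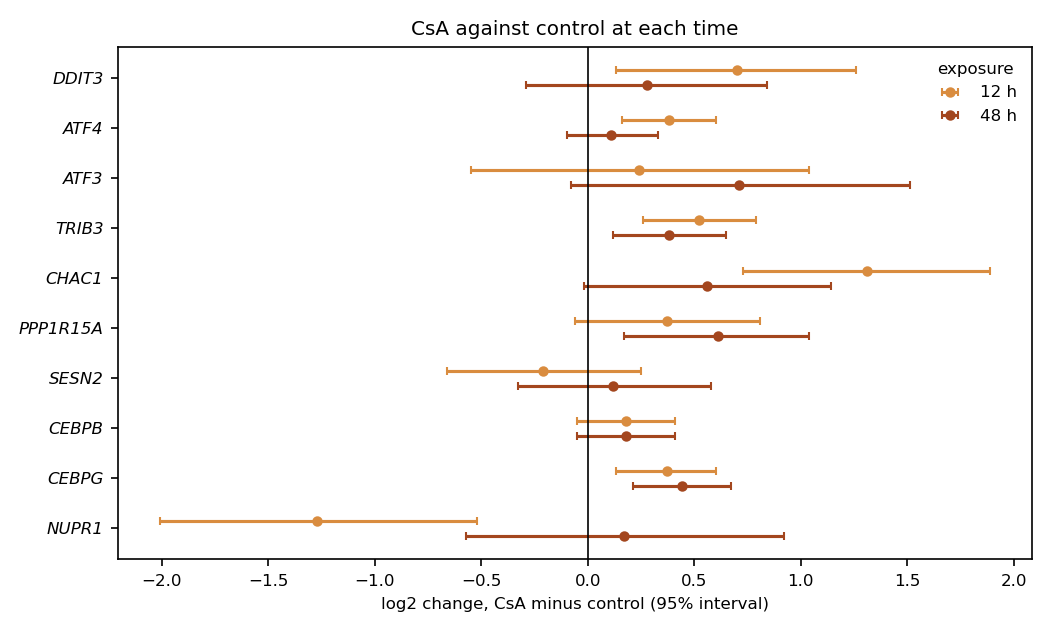
Log2 difference of CsA minus control (horizontal axis) for each gene at 12 h and at 48 h, with 95% intervals from limma and 3 arrays per group. The largest positive difference is that of CHAC1 at 12 h (1.31) and the only negative ones are NUPR1 (-1.27) and SESN2 (-0.21) at 12 h.

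Whether the CsA effect itself changed between 12 h and 48 h was tested as the difference of both effects. None of the 10 passed, and 1.12% of all genes did. At an unadjusted limma p under 0.05, where 7.02% of all genes were higher and 10.4% lower, 1 of the 10 was higher, NUPR1, at 1.44 (SE 0.48, 95% interval 0.39 to 2.50, adjusted p = 0.163), which rests on the near-background 12 h values. With limma array weights it was 1.82 (adjusted p = 0.0381). CHAC1 stood at -0.75 (95% interval -1.57 to 0.07), DDIT3 at -0.42 (-1.22 to 0.38) and ATF4 at -0.27 (-0.58 to 0.04). Without replicate 3 of CsA at 12 h the CHAC1 value was -0.39 and the ATF4 value -0.17. The DDIT3 value was -0.17 without replicate 2 of CsA at 48 h, and -0.65 without replicate 2 and -0.15 without replicate 3 of the control at 48 h. CEBPB stood at 0.00 (-0.32 to 0.32) and CEBPG at 0.08 (-0.25 to 0.40).

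By group mean, 8 of the 10 genes were ordered control at 12 h, CsA at 12 h, control at 48 h and CsA at 48 h, from low to high. SESN2 and NUPR1 had the same order with CsA lowest at 12 h. Every 48 h control array lay above every 12 h CsA array for all 10. The share of all genes for this pair of groups was not computed. Against the 12 h controls the same order held for 31.8% of all genes. The steps within a time lay within the overlap of the arrays for ATF3, PPP1R15A, SESN2 and CEBPB at 12 h and for DDIT3, ATF4, SESN2 and NUPR1 at 48 h.

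The other probe sets of these genes showed how far the values depend on the probe. ATF3 had 3: the second, 1554980_a_at, changed by 4.14 over time in controls, close to 4.02 for the first, but its CsA arrays at 48 h, 10.93, 10.94 and 9.66, overlapped its controls at 9.69, 10.17 and 10.29. The third ATF3 probe set, 1554420_at, lay near background at 12 h, at 2.11 to 2.31, and spread from 2.39 to 6.06 at 48 h. In both, replicate 3 was the lowest CsA array at 48 h, the array with dim hybridization controls, whose part in this was not tested.

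The second probe sets of TRIB3, PPP1R15A, SESN2 and CEBPG changed over time in controls by 2.16, 2.08, 1.56 and 1.72, against 2.01, 1.85, 1.25 and 2.09 for the first. For CsA against control the second CEBPG probe set, 204203_at, differed by 0.12 at 12 h and 0.55 at 48 h, where the first had 0.37 and 0.44. Its 48 h arrays were well separate, at 11.06, 11.02 and 11.02 with CsA against 10.29, 10.46 and 10.70. The second TRIB3 probe set overlapped at 48 h, with 11.70, 11.81 and 11.23 against 10.93, 11.05 and 11.57. At 12 h the second probe sets of TRIB3 and CEBPG both overlapped, unlike the first. TRIB3 read 9.58, 9.07 and 9.73 there with CsA against 9.20, 8.69 and 9.17. CEBPG read 8.86, 8.74 and 9.03 against 8.80, 8.64 and 8.83. Probe sets named with _s_at or _a_at, which include those of SESN2 and NUPR1 and some of ATF3 and TRIB3, can be shared between transcripts or related genes.

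Known target genes of ATF4 and CHOP also rose over time in controls. Of 38 listed, 36 were tested (not GPT2 and FGF21), and 32 rose and 1 fell between 12 h and 48 h, where 24.6% of all genes rose and 20.9% fell. Their median change was 1.50, against 0.03 over all genes. The largest was ALDH1L2, a mitochondrial folate enzyme, at 4.27 (SE 0.39), followed by SLC7A11, the cystine transporter, at 3.94 (SE 0.23), and GDF15, a secreted stress hormone, at 3.37 (SE 0.19). The target that fell was ATF5, a bZIP factor close to ATF4, at -1.08 (SE 0.13, limma adjusted p = 7.35e-05). Under CsA 29 rose and 1 fell, where 27.8% of all genes rose and 25.8% fell, with a median of 1.37. The risers in both cultures included SLC6A9. It lay under 4 on every 12 h array and passed the filter only through its 48 h arrays. The list was chosen with earlier results of these data known, so these counts are descriptions.

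At 12 h none of the 36 targets passed for CsA against control, while 31 of 36 differences were positive, against 47.1% of all genes, and the median was 0.14. At an unadjusted limma p under 0.05, 6 were higher and 1 was lower, against 1.70% and 1.15% of all genes. SLC7A11 read 8.46, 7.77 and 8.86 with CsA against 7.18, 7.09 and 7.44, a difference of 1.13 (SE 0.23, adjusted p = 0.731). ALDH1L2 differed by 0.89 (SE 0.39) and GDF15 by 0.88 (SE 0.19), with limma adjusted p of 1 and 0.731.

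At 48 h, 4 of the 36 targets passed as higher with CsA and 1 as lower, where 6.20% and 9.89% of all genes did, and none passed in the limma fit of the 48 h arrays alone. At an unadjusted p under 0.05 in the fit of all arrays, 8 were higher and 3 lower, where 14.2% of all genes were higher and 17.5% lower. The higher ones were VEGFA, a growth factor for vessels, at 0.82 (SE 0.20), SLC3A2, the heavy chain of amino acid transporters, at 0.76 (SE 0.12), GDF15 at 0.69 (SE 0.19) and SARS1, the seryl-tRNA synthetase, at 0.39 (SE 0.11). Their limma adjusted p were 0.0208, 0.00361, 0.0318 and 0.0370 with all arrays, and 0.0729, 0.0596, 0.0981 and 0.159 with the 48 h arrays alone. ATF5 was lower (-0.51, SE 0.13, limma adjusted p = 0.0229, and 0.0795 alone), reading 7.16, 7.17 and 7.13 against 7.82, 7.64 and 7.52. Of the 36 differences 22 were positive, against 49.2% of all genes, with a median of 0.13. SLC7A11 stood at -0.19 and ALDH1L2 at -0.15 at 48 h. For SLC7A11 the CsA effect at 48 h minus that at 12 h was -1.32 (SE 0.33, limma adjusted p = 0.0824). Leaving out replicate 1 of CsA or replicate 2 of the control at 48 h left 1 of the 5 targets, SLC3A2, and leaving out replicate 1 of the control left 2, SLC3A2 and VEGFA.

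**Figure D4:**
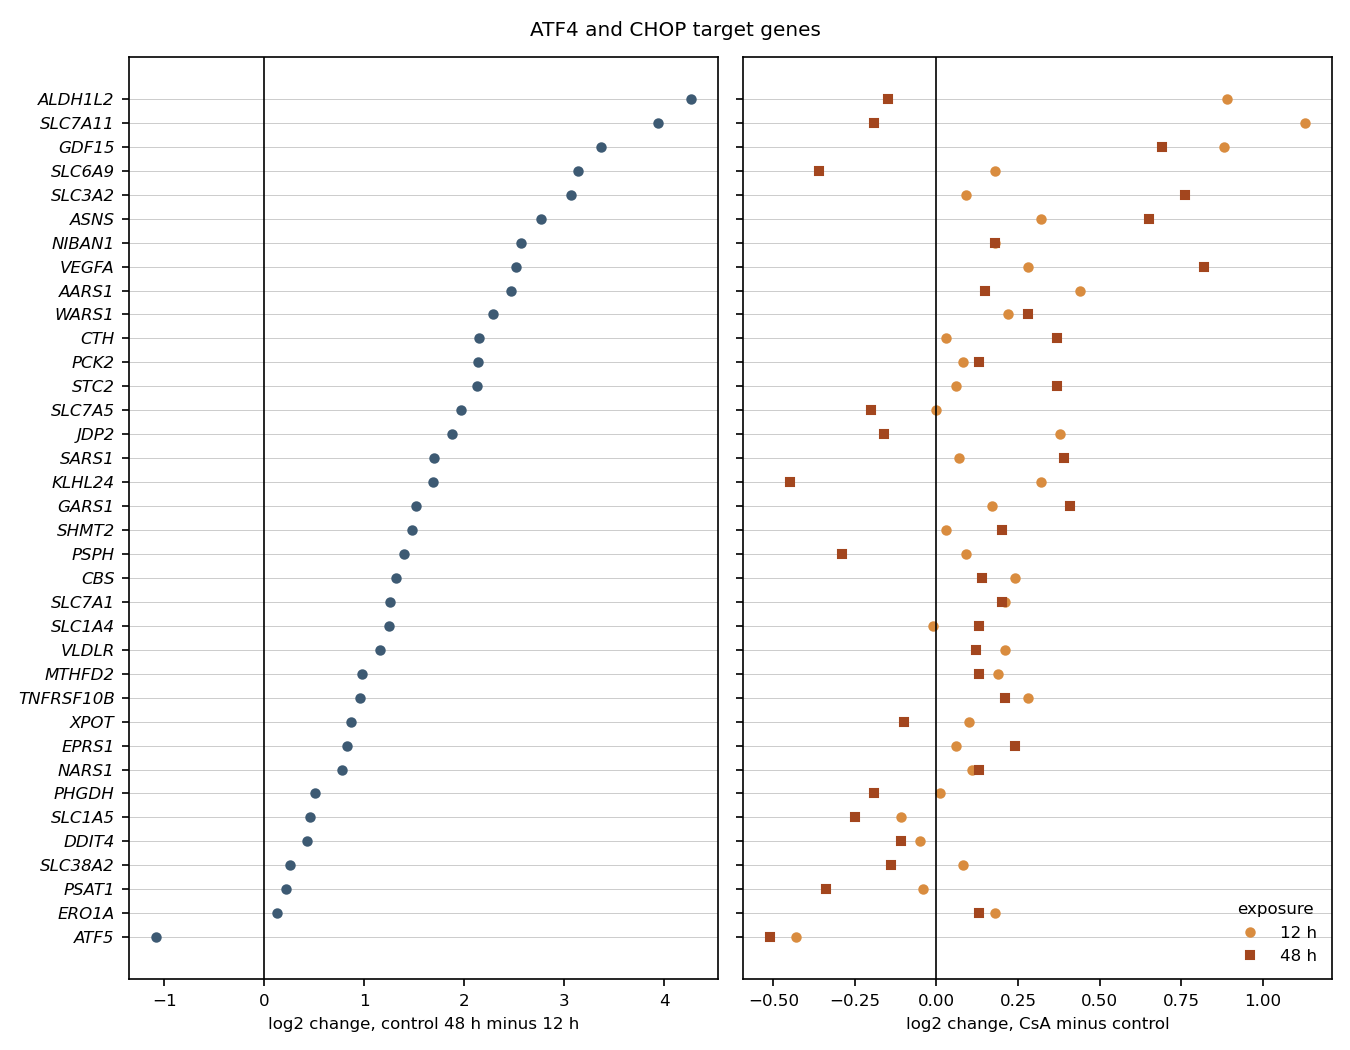
Log2 changes of the 36 tested ATF4 and CHOP target genes: control at 48 h minus 12 h in the left panel, and CsA minus control at 12 h (circles) and 48 h (squares) in the right panel, each from the means of 3 arrays per group. The changes over time reach 4.27 (ALDH1L2), while the CsA differences stay between -0.51 (ATF5) and 1.13 (SLC7A11).

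The machinery upstream of ATF4, meaning the eIF2 kinases, the eIF2 and eIF2B subunits and the phosphatase with its helpers, was tested for all of its 19 listed genes. Over time in controls 6 rose and 3 fell, shares not far from the 24.6% and 20.9% of all genes, with a median of 0.03. The risers included DNAJC3, an ER co-chaperone that inhibits PERK, at 2.14 (SE 0.16), IMPACT, an inhibitor of GCN2, at 1.43 (SE 0.11), and EIF2AK3, which encodes PERK, at 0.78 (SE 0.07). EIF2S1, the eIF2 alpha subunit itself, fell by 0.35 (SE 0.11, limma adjusted p = 0.0250). At 12 h none of the 19 passed for CsA, and 1 was higher at an unadjusted limma p under 0.05, as were 1.70% of all genes, DNAJC3 at 0.41 (SE 0.16). At 48 h 1 of the 19 passed, where 6.20% of all genes passed as higher, EIF2B1, a subunit of the exchange factor that recharges eIF2, at 0.25 (SE 0.07, limma adjusted p = 0.0318), and it did not pass in the 48 h arrays alone (adjusted p = 0.188). EIF2B3 stood at 0.56 (SE 0.19), EIF2B2 at 0.37 (SE 0.15) and EIF2S1 at 0.32 (SE 0.11) without passing. EIF2B3 read 9.36, 9.41 and 10.18 with CsA against 9.20, 9.00 and 9.08, highest on the array with dim hybridization controls. EIF2B2 and EIF2S1 were also highest on that array, at 11.07 and 12.70. At an unadjusted limma p under 0.05, 5 of the 19 were higher and 1 lower, where 14.2% and 17.5% of all genes were. The lower one was EIF2S3, at -0.25 (SE 0.10).

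Other bZIP factors can pair or compete with these regulators. Of 38 listed, 32 were tested, and 10 rose and 5 fell over time in controls, shares near the 24.6% and 20.9% of all genes, with a median of 0.33. XBP1, the factor of the IRE1 arm of the ER stress response, rose by 1.76 (SE 0.16) over time and differed by 0.47 (SE 0.16) at 12 h and -0.05 at 48 h for CsA. None of the 32 passed for CsA at 12 h, and 2 were higher and none lower at an unadjusted limma p under 0.05, against 1.70% and 1.15% of all genes. FOS, with a difference of 0.62 at 12 h and -1.35 at 48 h, had an SE of 1.76, so no direction is given.

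At 48 h 5 of the 32 bZIP factors passed as higher with CsA, FOSL1, MAFF, NFIL3, FOSL2 and CREB3, and 1 passed as lower, CEBPD, where 6.20% of all genes passed as higher and 9.89% as lower. FOSL1, a subunit of the AP-1 dimer, was the one that also passed in the 48 h arrays alone. It read 8.29, 8.64 and 8.13 with CsA against 7.20, 7.25 and 7.14, a difference of 1.16 (SE 0.18, limma adjusted p = 0.00362, and 0.0454 alone). FOSL1 had fallen by 2.09 over time in controls, from 9.66, 8.96 and 9.25, so at 48 h the CsA arrays lay between the levels of the 12 h and 48 h controls. The others stood at 0.88 (MAFF), 0.69 (NFIL3), 0.48 (FOSL2) and 0.44 (CREB3), and CEBPD at -0.62 (SE 0.16, limma adjusted p = 0.0275). Among the CsA arrays NFIL3, MAFF and CREB3 were highest on the one with dim hybridization controls, and FOSL1 and FOSL2 lowest. NFIL3 read 12.27, 12.14 and 13.06 with CsA. MAF stood at -0.95 (SE 0.36) without passing.

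Genes through which CHOP has been linked to cell death did not pass for CsA at either time. Few of all genes passed at 12 h (0.00897%), and 6.20% passed as higher and 9.89% as lower at 48 h. Of 9 listed, 8 were tested, and 6 rose and 1 fell over time in controls, where 24.6% and 20.9% of all genes did, with a median of 0.67. TNFRSF10B, the death receptor DR5, which the target list also holds, rose by 0.96 (SE 0.13) over time and differed by 0.28 (SE 0.13) at 12 h and 0.21 (SE 0.13) at 48 h with CsA. TNFRSF10A, which encodes DR4, differed by 0.32 and 0.44 (SE 0.16 for both). BCL2L11, the death activator BIM, rose by 0.87 over time and stood at -0.71 at 48 h with CsA (SE 0.22, limma adjusted p = 0.0532). BCL2, which protects from cell death, rose by 1.16 over time and stood at -0.53 (SE 0.31) at 48 h with CsA. BAK1, a pore-forming death effector, fell by 0.62 over time and stood at -0.28 at 12 h and 0.29 at 48 h with CsA (SE 0.21 for both). At 48 h it read 8.13, 8.07 and 9.06 with CsA against 8.21, 8.06 and 8.11, highest on the array with dim hybridization controls. At an unadjusted limma p under 0.05, 1 of the 8 was higher and none lower at 12 h, against 1.70% and 1.15% of all genes. At 48 h 2 were higher and 1 lower, where 14.2% of all genes were higher and 17.5% lower.

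The genes whose levels followed DDIT3, ATF4 and CEBPG most closely over the 12 arrays were sought among 7553 genes with a mean log2 of at least 6 in 1 group and an SD of at least 0.2. These correlations are descriptions: the arrays fall into a 12 h and a 48 h cluster, and the genes share arrays. For DDIT3 they were IFRD1 (Pearson r 0.997), NIBAN1 (0.994) and ARG2 (0.993). For ATF4 they were DNAJB9 (0.993), AARS1 (0.992) and SLC7A11 (0.990), and for CEBPG they were TES (0.997), CARS1 (0.995) and EPB41L4A-AS1 (0.992). NIBAN1, AARS1 and SLC7A11 also stand in the target list. DNAJB9, an ER co-chaperone, was the 1 gene that passed for CsA at 12 h, reading 10.40, 10.17 and 10.49 against 9.37, 9.56 and 9.58 (log2 difference 0.84, SE 0.10, limma adjusted p = 0.0464). It did not pass in the 12 h arrays alone (adjusted p = 0.405). CARS1, the cysteinyl-tRNA synthetase, differed by 0.39 (SE 0.10) at 48 h with CsA and EPB41L4A-AS1, a long noncoding RNA, by 0.56 (SE 0.12), with limma adjusted p of 0.0236 and 0.0128, and 0.113 and 0.0662 in the 48 h arrays alone.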

How the data were processed

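The authors deposited log2 values per probe set, made with GCRMA per the submitters' processing notes (version and settings not given in the sources used here). A platform annotation gave 1 symbol for 41091 of 54675 probe sets. Those above log2 4 on at least 3 of the 12 arrays were kept (20625), and the probe set with the highest mean stood for its gene (11154 genes). A linear model of 4 groups was fitted to all 12 arrays with limma 3.58.1 under R 4.3.3 (plain priors, 8 residual degrees of freedom). It compared CsA with control at each time, both effects with each other, and 48 h with 12 h in each culture. Tests were two-sided, with Benjamini-Hochberg adjustment over all genes and a threshold of 0.05. Beside it, arrays of one time or one treatment were fitted alone (4 residual degrees of freedom).

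Named were all 10 genes and, of 4 pathway lists, every gene past the threshold for CsA and the 3 with the largest difference at each time with a mean log2 of at least 6 in 1 group; DNAJB9, CARS1 and EPB41L4A-AS1 come from the likeness rule. The genes and lists were chosen with earlier results of these data known. The fit was tested on simulated data, where calls at 48 h were often false in the fit of all arrays and less often in the 48 h arrays alone. Those data held far fewer changed genes than were called at 48 h, and the 48 h arrays alone found fewer of them. The simulated spread of each gene was its SD over the 3 arrays of a group, taken as exact. Promoter sequences are from RefSeq. Alternatives covered filters, probe set choice, normalization, priors, weights, blocks and left-out arrays. No 2 arrays held identical values. Precision is limited by 3 arrays per group.

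Same-numbered arrays deviated together between CsA and control at 12 h (r 0.467 to 0.577 across genes) and between the controls of both times (0.278 to 0.325). They did not do so for every pair at 48 h or between the CsA groups (the lowest r was -0.051 and -0.006). The numbers were therefore read as pairs at 12 h and between controls, on the labels' replicate numbers and these correlations. Pairing entered only the differences between same-numbered arrays and the alternatives with a replicate block. The fits behind the SE, intervals and adjusted p of the Results held no pairing term.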

Additional observations from a re-analysis of the deposited data

Results flagged for a closer look

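EIF2AK3, which encodes the ER stress sensor PERK, stood out because all CsA arrays moved one way at 12 h and the other way at 48 h. At 12 h the CsA arrays read 10.08, 9.98 and 10.13 against 9.86, 9.96 and 9.98 in controls, a difference of 0.13. At 48 h they read 10.55, 10.62 and 10.61 against 10.66, 10.76 and 10.71, a difference of -0.11. The CsA effect at 48 h minus that at 12 h was -0.25 (SE 0.10), with a limma p of 0.0355 before and 0.247 after adjustment over all genes, so it did not pass. At 12 h the lowest CsA array and the highest control array both read 9.98 after rounding. Lying fully above the controls at 12 h held for 6.53% of all genes, and lying fully below them at 48 h for 15.8%. The share of all genes meeting both was not computed. The rule was applied to the 10 regulators and the named genes of the lists, and none of the 10 regulators met it.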

How the results depend on the processing

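Each of the 10 regulators passed for 48 h against 12 h, in controls and under CsA, under every alternative run, including without any single array and without both 48 h replicate 1 arrays. None passed for CsA at 12 h under any, and no ATF4 or CHOP target did. Of 1200 single log2 changes, 1174 kept direction and side of the threshold, 5 lost and 15 gained a call, and 6 changed sign. The sign changed in these: the CEBPG difference of effects became -0.08 with array weights, and leaving out single arrays moved ATF3 at 12 h over -0.19 to 0.61, NUPR1 at 48 h over -0.07 to 0.42, SESN2 at 48 h over -0.02 to 0.21 and the CEBPG difference of effects over -0.01 to 0.17. The CEBPB difference of effects, 0.00, had no sign to change and ran from -0.07 to 0.11.

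The counts for CsA at 48 h were the ones that moved. The 1 regulator called became 2 with array weights, with quantile normalization and with the replicate block over all arrays, 3 with trend and robust priors, 4 with the replicate block within each time, and 0 with the replicate block in a fit of the 48 h arrays alone. It was 1 in the 48 h arrays alone, but ATF3 in place of CEBPG, whose adjusted p there was 0.131. Leaving out single arrays gave 0 to 3, with 0 without control replicate 1 or 2 at 48 h and 3 without CsA replicate 3 at 12 h. For the difference of effects, array weights called 1, NUPR1.

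The 5 targets called for CsA at 48 h became 3 without the filter, 9 and 10 with the replicate block over all arrays and within each time, 0 in the 48 h arrays alone with and without that block, 1 without both 48 h replicate 1 arrays, 1 in the 48 h arrays alone without CsA replicate 3, and 1 to 6 without single arrays. The replicate block changed no other call, and the cause of these shifts was not tested. The block within each time was not run for 48 h against 12 h, since it is nested in time; the block over all arrays left all 10 called. The block over all arrays, the one-treatment fits and the 48 h fit without CsA replicate 3 were chosen after seeing the data. With 3 arrays per group, and with dim signals near log2 4 for CHAC1 and NUPR1 at 12 h, small differences may have gone undetected.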
